A study of Homo sapiens with 64 samples.

Results

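TBX3 and TBX2 are paralogous T-box transcription factors, and both were measured after treatment with drugs that raise cyclic AMP in the human airway epithelial cell line BEAS-2B, which is immortalised. The members are all probe sets that the array platform's annotation assigns to TBX3 or TBX2: 11 of 54613 probe sets that were not controls, 7 for TBX3 (gene ID 6926) and 4 for TBX2 (gene ID 6909). The pair was chosen by a measured value, the level of TBX3, which was highest after 2 h of indacaterol, so the level of TBX3 under indacaterol at that time, and its difference from vehicle, are given as a description with no test. The study holds 64 arrays in 16 groups of 4 replicates, in which confluent BEAS-2B cells received indacaterol and GSK 256066 together (each at 10 nM, called both drugs below), 10 nM indacaterol, 10 nM GSK 256066 or vehicle, each for 1, 2, 6 or 18 h. Of the drugs, indacaterol is an agonist of the β2-adrenoceptor, which raises cyclic AMP, and GSK 256066 inhibits phosphodiesterase 4, which breaks cyclic AMP down. Vehicle cells shared with all others a serum-free keratinocyte medium, supplemented with epidermal growth factor and pituitary extract during growth; for the last day before treatment the labels name the medium alone.

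TBX2 and TBX3 bind short T-box elements in DNA through the T-box domain and act mainly as repressors of transcription, recruiting histone deacetylases. They are best known for holding back the cell cycle inhibitors p21 (CDKN1A) and p14ARF (from the CDKN2A locus), by which they let cells escape senescence, and for their dependence on BMP and WNT signalling in the embryo. In the mouse, both are made in the mesenchyme of the embryonic lung, where they keep it growing and branching. Loss of one copy of TBX3 causes ulnar-mammary syndrome in people.

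Values are probe-set intensities on the authors' linear scale in arbitrary units, and changes are differences of log2(intensity + 16), which understate the change of dim probe sets. Array medians lay between 101.2 and 127.4. The epithelial keratins KRT8 and KRT18 were bright on every array (3048 to 6726 and 5118 to 9853). The other epithelial markers varied widely: KRT7 ran from 239 to 10450, KRT5 from 114.5 to 36670 and KRT19 from 0.00396 to 4407. CDH1 ran from 140.9 to 1432 and EPCAM from 28.69 to 248.8. Of the 4 leukocyte markers, all measured, PTPRC did not exceed 42.38, TYROBP 42.39 and CD3E 110.7, while CD14 reached 289.5 (mean 194.7 on replicate 3 arrays and 84.99 on the others). The 4 fibroblast markers, all measured, reached 243.4 (DCN), 160.2 (COL3A1), 131.8 (PDGFRA) and 102.9 (LUM). Of the 3 endothelial markers, CDH5 did not exceed 20.61 and VWF 98.59, while PECAM1 ran from 414 to 698.9. The summed level on an array lay between 170.3 and 450.2 for the leukocyte list, 318.3 and 515.1 for the fibroblast list and 497.9 and 773.1 for the endothelial list. It was 8792 to 63670 for the 7 epithelial genes. The part of other cell types in the results was not tested. The 16 arrays of replicate 3 stood apart from the 48 others: without overlap, 87 genes differed upwards by 4-fold or more in them and 3 downwards, KRT5 among the higher (mean 32670 on replicate 3 arrays and 164.6 on the others), as was KRT19 (3330 and 22.03). TBX3 did not follow this split (138 to 483.2 on replicate 3 arrays and 105.8 to 556.7 on the others), but 3 of the 4 TBX2 probe sets averaged lower in replicate 3, as given with their values. The labels do not state whether the 4 replicates were separate cultures, so p-values measure the spread between these samples, and the number of arrays limits the precision.

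TBX3 was high after 2 h in both groups that received indacaterol. At the brightest TBX3 probe set, 225544_at, the 4 arrays of cells given both drugs for 2 h read 515.3, 395.7, 463.2 and 423.5 (449.4 ± 51.92, SD, n = 4). The 4 arrays of cells given indacaterol alone read 556.7, 446.7, 483.2 and 380 (466.6 ± 73.69, SD, n = 4). Cells given GSK 256066 alone read 158, 105.8, 138 and 136 (134.4 ± 21.53), and vehicle cells read 155.9, 176.8, 189.3 and 137.1 (164.8 ± 23.03). Every array with indacaterol thus lay above every array without it at 2 h, and the groups with indacaterol overlapped each other. A group lay wholly above vehicle at 2 h for 2.84% of genes with indacaterol and for 2.05% with both drugs. In RNA of whole cultures, more cells with TBX3 transcript and more transcript per cell cannot be told apart.

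At 1 h the same ordering was present with a smaller gap. Cells given both drugs for 1 h read 287.9, 234.4, 351.9 and 270, indacaterol cells 382.7, 302.6, 284.8 and 230.1, GSK 256066 cells 197.3, 179.6, 209.8 and 176.9, and vehicle cells 191.7, 236.3, 192.5 and 187.3. The lowest indacaterol array and the lowest array with both drugs lay just under the single highest vehicle array of 236.3, so neither group was free of overlap with vehicle, whereas both lay wholly above GSK 256066 alone. At 6 h cells given both drugs read 280.7, 267.1, 386.6 and 236, indacaterol cells 296.6, 263.8, 235.5 and 241.6, GSK 256066 cells 233.3, 232.1, 196 and 190.8, and vehicle cells 174.6, 232.8, 228.4 and 174.5. Here the groups with indacaterol lay above those without it, but narrowly, the lowest array with indacaterol reading 235.5 and the highest without it 233.3, and 2.34% of genes with indacaterol and 2.72% with both drugs lay wholly above vehicle. At 18 h the means were 260.6 with both drugs, 253.2 with indacaterol, 261.6 with GSK 256066 and 294.8 with vehicle, and the drug groups overlapped vehicle.

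**Figure D1:**
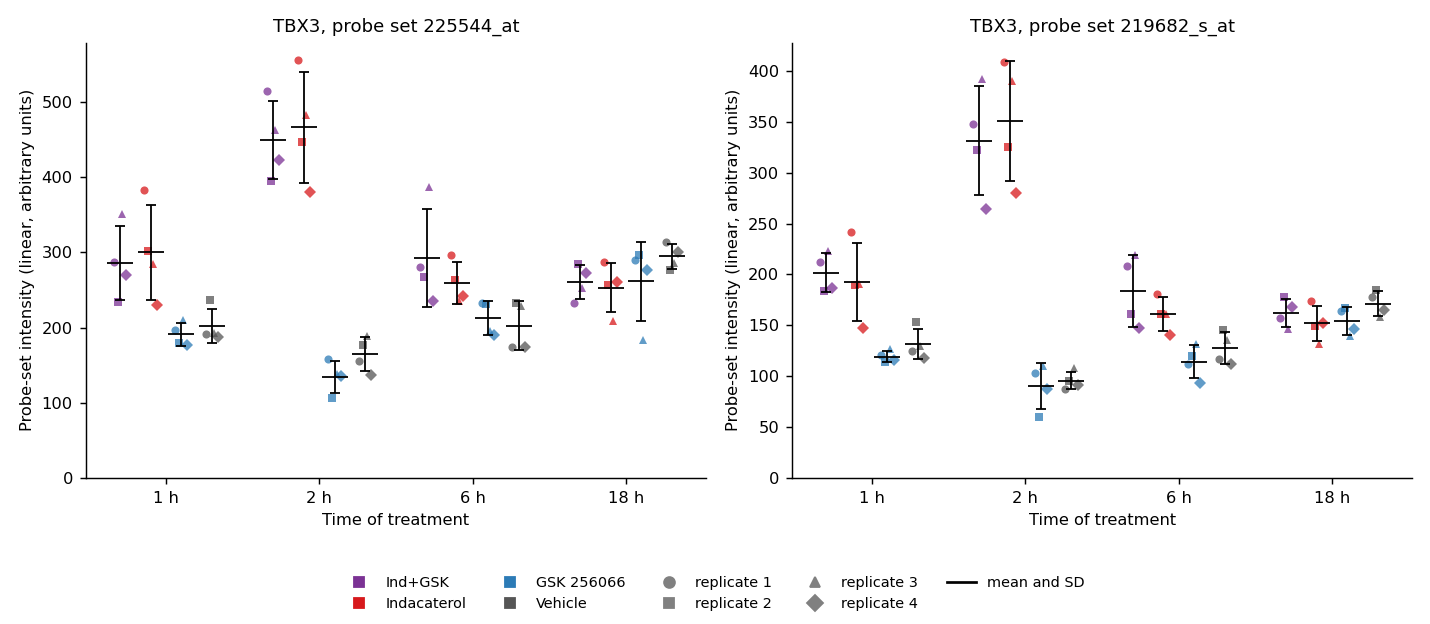
Intensity of TBX3 (linear, arbitrary units) on each of the 64 arrays at its 2 brightest probe sets, by time of treatment, with Ind+GSK, indacaterol, GSK 256066 and vehicle from left to right at each time; bars are the mean and SD of 4 arrays and symbols mark the replicate. At 2 h the arrays with indacaterol read 380 to 556.7 at 225544_at and those without it 105.8 to 189.3.

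The level of TBX3 also moved with time in cells that received no indacaterol. In vehicle cells it was lowest at 2 h (164.8) and highest at 18 h (294.8 ± 16.41), a log2 difference of 0.79 ± 0.14 (SE; 95% interval 0.51 to 1.07). In cells given GSK 256066 alone the 18 h mean exceeded the 2 h mean by 0.87 ± 0.14 on the log2 scale. In indacaterol cells the course ran the other way, with 18 h below 2 h by a log2 difference of -0.84 ± 0.14. The 2 h vehicle mean, from which the 2 h differences of the drug groups are taken, was thus the lowest of the 4 vehicle means. These courses share arrays with the values that chose the gene and are described without a test.

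Over all 16 groups the TBX3 means spanned 1.68 on the log2 scale. Indacaterol at 2 h stood first and both drugs at 2 h second, with overlapping arrays, and indacaterol at 1 h came next (300 ± 63.15). The highest indacaterol array at 1 h (382.7) lay below all arrays of both drugs at 2 h but above the lowest of indacaterol at 2 h (380). Vehicle at 18 h (294.8) followed, above both drugs at 6 h and at 1 h, and GSK 256066 at 2 h stood last. From indacaterol at 1 h downwards each group overlapped the next lower one.

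Against vehicle of the same time, TBX3 under indacaterol differed by 0.52 ± 0.14 (SE) at 1 h, 1.41 ± 0.14 at 2 h, 0.34 ± 0.14 at 6 h and -0.21 ± 0.14 at 18 h on the log2 scale; on this scale 1.41 corresponds to 2.66-fold. Both drugs differed from vehicle by 0.46, 1.37, 0.49 and -0.17 at these times. GSK 256066 alone differed from vehicle by -0.07, -0.27, 0.07 and -0.18, and each of its 95% intervals included 0. Adding GSK 256066 to indacaterol left a difference of -0.06, -0.05, 0.15 and 0.04 from indacaterol alone, with an interval at 2 h of -0.33 to 0.24. These comparisons share arrays with the choice of the gene and are given without a test.

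Both drugs against GSK 256066 alone, the effect of adding indacaterol in the presence of the phosphodiesterase inhibitor, shares no array with indacaterol minus vehicle and was tested, although its results were known when the pair was chosen and all comparisons share one estimate of spread. The peak by which TBX3 was chosen was also taken over all 16 groups, these among them. The test is thus no independent support for a rise of TBX3. TBX3 rose at 2 h by 1.63 ± 0.14 on the log2 scale (95% interval 1.35 to 1.92), or 3.11-fold, and all 4 arrays with both drugs lay above all 4 with GSK 256066 alone (limma adjusted p = 1.081e-11 over 19775 genes). In this comparison 0.850% of genes rose at an adjusted p under 0.05, and TBX3 had the 22nd highest log2 difference of the 19775. At 1 h the difference was 0.53 ± 0.14 (limma adjusted p = 0.1934) and at 6 h 0.41 ± 0.14 (limma adjusted p = 0.3384), neither past the threshold although the groups did not overlap at either time. With the replicate number as a block, 1 h was called (limma adjusted p = 0.04022, where the block called 0.480% of genes) and 6 h was not (0.0774). Replicate numbers counted as pairing the arrays if, for each of the 4 numbers, residuals of the 2 arrays had an r over 0.1 across genes. This rule was not met at 1 h (lowest r -0.1652). A lack of overlap in this direction was found for 0.541% of genes at 1 h, 2.53% at 2 h and 2.08% at 6 h. At 18 h the difference was 0.01 ± 0.14 (limma adjusted p = 0.9999). Without the replicate 3 arrays the 2 h difference was 1.63 (limma adjusted p = 1.359e-09) and the others were 0.48 at 1 h, 0.24 at 6 h and -0.13 at 18 h. After quantile normalization the 1 h difference was 0.57 and was called (limma adjusted p = 0.02246).

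The effect differed between times. TBX3 was chosen for its peak at 2 h of indacaterol, with the results for both drugs against GSK 256066 known. The tests below are thus no independent support for a peak at 2 h. A moderated F-test of both drugs minus GSK 256066 over the 4 times gave a limma adjusted p of 5.91e-06 for TBX3, and 0.0759% of genes (15 of 19775) passed it. The effect at 2 h exceeded that at 1 h by 1.10 ± 0.20 on the log2 scale (limma adjusted p = 0.0207). It was lower at 6 h than at 2 h, by -1.22 ± 0.20 (limma adjusted p = 0.001143), and lower at 18 h than at 2 h, by -1.62 ± 0.20 (limma adjusted p = 1.536e-06). Both groups of the comparison moved. From 2 h to 18 h GSK 256066 alone changed by 0.87 ± 0.14 and both drugs by -0.75 ± 0.14 on the log2 scale. From 1 h to 2 h GSK 256066 alone changed by -0.47 and both drugs by 0.63. The effects at 1 h and 6 h differed by -0.12 ± 0.20 (limma adjusted p = 1, 95% interval -0.52 to 0.28).

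**Figure D2:**
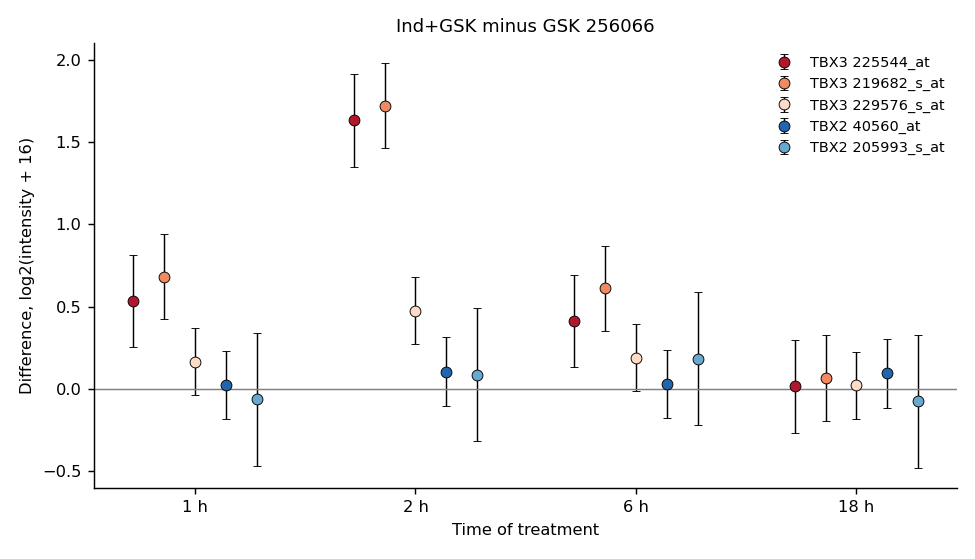
Difference between Ind+GSK and GSK 256066 alone on the log2(intensity + 16) scale at each time, for the 3 brighter TBX3 and the 2 brighter TBX2 probe sets; points are limma estimates and bars their 95% confidence intervals. At 2 h the TBX3 probe sets 225544_at and 219682_s_at stand at 1.63 and 1.72, while both TBX2 intervals include 0 at every time.

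The second TBX3 probe set, 219682_s_at, followed the first closely, and Pearson's r between them was 0.95 over the 64 arrays, which share group and replicate. At 2 h it read 347.5, 322.2, 391.7 and 263.8 with both drugs and 103.3, 59.7, 109.8 and 87.74 with GSK 256066 alone. Tested over all 54613 probe sets, it rose with both drugs relative to GSK 256066 at 1 h (0.68 ± 0.13, limma adjusted p = 0.006985), 2 h (1.72 ± 0.13, 1.463e-13) and 6 h (0.61 ± 0.13, 0.01326) but not at 18 h (0.07 ± 0.13, 1). The share of probe sets that rose was 0.0696% at 1 h, 0.672% at 2 h, 0.196% at 6 h and 0% at 18 h. Its 1 h and 6 h calls changed with the arrays and the model: without the replicate 3 arrays the adjusted p was 0.09755 at 1 h and 0.0984 at 6 h, and with only the compared groups in the fit it was 0.2709 and 0.5034. With the replicate block it was smaller, 0.0002268 at 1 h, where the numbers did not meet the rule for pairing, and 0.0004228 at 6 h, where they did. With the block 0.275% of probe sets rose at 1 h and 1.29% at 6 h. Leaving out single arrays also ended the unblocked calls, at 1 h for replicate 3 of both drugs (adjusted p = 0.1029) and replicates 2 (0.05157) and 4 (0.05005) of GSK 256066, and at 6 h for replicates 1 (0.118) and 3 (0.1653) of both drugs and replicate 4 of GSK 256066 (0.1511).

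The third probe set, 229576_s_at, had a smaller range. At 2 h it read 186.9, 201.4, 206 and 191.3 with both drugs, 194.1, 170.4, 203.8 and 187.9 with indacaterol, 124.6, 146.7, 161.3 and 118.2 with GSK 256066 and 142.3, 131.8, 150 and 118.8 with vehicle. The lowest array with indacaterol read 170.4 and the highest without it 161.3. The share of probe sets without overlap was not counted. Over genes it was 2.53% for both drugs above GSK 256066 at 2 h. It rose at 2 h with both drugs relative to GSK 256066 by 0.47 ± 0.10 (limma adjusted p = 0.006359; 0.05157 without GSK 256066 replicate 4, 0.4485 with only the compared groups in the fit, and 0.0008447 with the replicate block, where 2.59% of probe sets rose), and its differences at 1, 6 and 18 h were 0.17, 0.19 and 0.02. Over 64 arrays its r was 0.60 with 225544_at and 0.67 with 219682_s_at.

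The other 4 TBX3 probe sets were dim, with means of 39.43 (222917_s_at), 35.37 (229565_x_at), 21.21 (228344_s_at) and 10.99 (243234_at), and their r with 225544_at over the 64 arrays ran from -0.26 to 0.18. In 16 tests of both drugs against GSK 256066 their differences lay between -0.15 and 0.26, limma called 0 and 1 had an unadjusted p under 0.05. Of the 7 TBX3 probe sets 1 was thus called at 1 h, 3 at 2 h, 1 at 6 h and none at 18 h, and the called ones are the brightest. Of all probe sets 0.0696%, 0.672%, 0.196% and 0% were called higher at these times. The scale understates changes of dim probe sets, so the 4 dim ones could show little either way. Averaging all 7 gave a 2 h difference of 0.57 (limma adjusted p = 0.004654).

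TBX2 was not called in any comparison of 2 groups. At its brightest probe set, 40560_at, the 4 arrays at 2 h read 212.3, 255.2, 189.8 and 216.1 with both drugs, 208.9, 234.2, 196.9 and 270.4 with indacaterol, 203.1, 180.1, 195.7 and 227.5 with GSK 256066, and 210.8, 217.3, 199.1 and 217 with vehicle. These 4 groups overlapped, and the 16 group means spanned 0.29 on the log2 scale, the highest being vehicle at 6 h (250 ± 13.15) and the lowest GSK 256066 at 2 h (201.6 ± 19.75). Each of the 16 groups overlapped the next in order of mean.

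**Figure D3:**
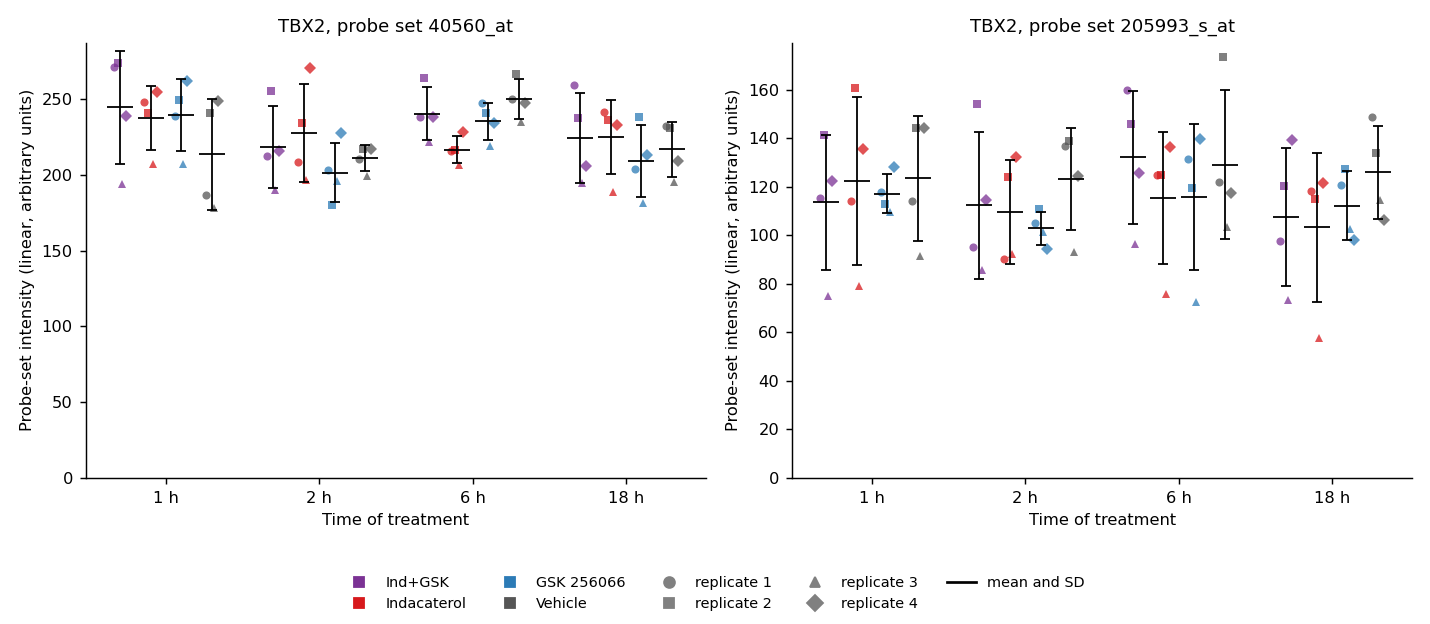
Intensity of TBX2 (linear, arbitrary units) on each of the 64 arrays at its 2 brightest probe sets, by time of treatment, with Ind+GSK, indacaterol, GSK 256066 and vehicle from left to right at each time; bars are the mean and SD of 4 arrays and symbols mark the replicate. At 40560_at all arrays lie between 178.2 and 274.2, and replicate 3 (triangles) is low in most groups of 205993_s_at.

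In 20 comparisons of 2 groups at the same time, limma called TBX2 in 0, and 0 had an unadjusted p under 0.05; the share of genes called was 0.212%, 1.20%, 0.273% and 0.00506% for indacaterol against vehicle at 1, 2, 6 and 18 h and 0.283%, 1.05%, 0.759% and 0.0354% for both drugs against vehicle. It was 0.142%, 0.925%, 0.359% and 0% for both drugs against GSK 256066, 0.00506% at 1 h and 0% later for GSK 256066 against vehicle, and 0% at each time for both drugs against indacaterol. Indacaterol differed from vehicle by 0.15 ± 0.10 at 1 h (limma adjusted p = 0.8979), 0.09 ± 0.10 at 2 h (0.9555), -0.19 ± 0.10 at 6 h (1) and 0.05 at 18 h. The 2 h interval, -0.11 to 0.30, lies below the TBX3 estimate of 1.41, but the difference between the genes was not tested. At 6 h the indacaterol arrays (216.1, 216.3, 206.6 and 228.2) all lay below the vehicle arrays (250.1, 267, 235 and 247.8), the single comparison of TBX2 without overlap, as did 1.43% of genes, with an unadjusted limma p of 0.06742. Both drugs differed from GSK 256066 alone by 0.02, 0.10, 0.03 and 0.09 at 1, 2, 6 and 18 h, with a limma adjusted p of 0.9026 at 2 h. The F-test between times gave a limma adjusted p of 1 for this effect (0.0759% of genes passed), 1 for indacaterol minus vehicle (0.268%) and 0.3742 for vehicle over time (6.65%).

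The other 3 TBX2 probe sets gave 0 limma calls in 60 tests, 0 with an unadjusted p under 0.05, and differences from -0.29 to 0.20; limma called 0.189% of probe sets over the 20 comparisons pooled. Of these, 205993_s_at (mean 116.6) had an r of 0.60 with 40560_at over the 64 arrays, and 213417_at (33.61) one of 0.59, while 221977_at (42.65) had one of -0.25. At 3 of the 4 probe sets TBX2 averaged lower on the replicate 3 arrays, with means of 88.96 on replicate 3 arrays and 125.8 on the others at 205993_s_at, 200.6 and 234.2 at 40560_at and 28.53 and 35.3 at 213417_at. At 221977_at the means were 43.72 and 42.29. The antisense gene TBX2-AS1 (228978_at), which is no member, had means of 48.42 and 108.6, and limma called it in 0 of 20 comparisons, 0 of them with an unadjusted p under 0.05.

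The other 15 T-box genes listed, among them EOMES and TBX21, which direct T lymphocyte fates, and TBX4 and TBX5, which pattern lung and limb mesenchyme, were all measured. Limma called 0 of 15 for both drugs against GSK 256066 at each time, and EOMES and TBX18 alone had an unadjusted p under 0.05, at 2 h. Over all genes 2.46%, 7.64%, 5.84% and 2.05% had one in this comparison at 1, 2, 6 and 18 h. The shares of all genes called in it were 0.142%, 0.925%, 0.359% and 0%. The 15 log2 differences at 2 h ran from -0.18 (TBX10) to 0.37 (EOMES), with a median of 0.01 beside 0.04 over all genes. EOMES averaged 80.09 with both drugs and 63.22 with GSK 256066. Limma also called 0 of 15 for indacaterol against vehicle at each time, with 4, 2, 0 and 1 having an unadjusted p under 0.05 at 1, 2, 6 and 18 h. Of all genes 7.07%, 8.01%, 4.79% and 4.42% had one, and 0.212%, 1.20%, 0.273% and 0.00506% were called.

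Without the replicate block, genes that TBX2 or TBX3 is reported to repress were not called in either comparison at any time (0 of 11 measured). With the block CDKN1A was called at 2 h and 6 h, as given below. Without it 0, 1, 1 and 0 had an unadjusted limma p under 0.05 for both drugs against GSK 256066 at 1, 2, 6 and 18 h. For indacaterol against vehicle 1, 0, 0 and 0 had one. Of all genes, 2.46%, 7.64%, 5.84% and 2.05% had such a p at these times in the first comparison and 7.07%, 8.01%, 4.79% and 4.42% in the second. The shares of all genes called without the block were 0.142%, 0.925%, 0.359% and 0% in the first and 0.212%, 1.20%, 0.273% and 0.00506% in the second. At 2 h the median log2 difference of the 11 genes between both drugs and GSK 256066 was 0.16, beside 0.04 for all genes. Between indacaterol and vehicle it was 0.01, beside -0.0001821 for all genes. NDRG1, a growth-restraining gene, averaged 3368 with both drugs and 2663 with GSK 256066 at 2 h (0.33 ± 0.15, limma adjusted p = 0.5278). The p21 gene CDKN1A averaged 5018 and 4332 in these groups (0.24 ± 0.21, limma adjusted p = 0.8892), and CDKN2A, which encodes p16 and p14ARF, averaged 7630 and 7454 (0.04 ± 0.09, limma adjusted p = 0.9761). With the replicate number as a block, CDKN1A was called at 2 h (limma adjusted p = 0.01771) and at 6 h (0.41 ± 0.06, limma adjusted p = 9.118e-06, with means of 5637 and 4260), and both of these are rises. It was 1 of the 11 at each time, and the block called 3.46% of all genes at 2 h and 3.06% at 6 h, against 0.0961% at 18 h.

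Of 12 genes for proteins reported to work with TBX2 or TBX3, only EGR1 was called without the replicate block. The 12 include histone deacetylases, the RB1 protein and the cardiac factor NKX2-5. EGR1, an immediate-early zinc finger factor with which TBX2 acts on NDRG1 in breast cancer cells, fell. At 2 h it read 792.4, 535.9, 537.7 and 359.1 with both drugs, against 1869, 1480, 1293 and 1182 with GSK 256066 alone. The log2 difference was -1.39 ± 0.19 (limma adjusted p = 2.988e-06), where 0.0759% of genes fell. Between indacaterol and vehicle it was -1.40 ± 0.19 at 2 h (limma adjusted p = 1.296e-06) and -0.81 ± 0.19 at 6 h (limma adjusted p = 0.03386). There 1.20% and 0.273% of genes were called in either direction. At 6 h EGR1 was lower by -0.91 ± 0.19 with both drugs relative to GSK 256066 (limma adjusted p = 0.006683, where 0.0809% of genes fell; 0.1685 without the replicate 3 arrays and 0.06683 without replicate 3 of both drugs). With only the compared groups in the fit the adjusted p was 0.07692 at 2 h and 0.21 at 6 h, and with the replicate block it was 1.555e-08 and 0.0002045. At 1 h EGR1 averaged 2979 with both drugs and 4803 with GSK 256066 (-0.68 ± 0.19, limma adjusted p = 0.303). There the block gave an adjusted p of 0.03039, but the numbers did not meet the rule for pairing. The histone deacetylase HDAC3 differed by -0.21 ± 0.06 at 6 h (limma adjusted p = 0.0635), and with the replicate block it (0.008014) and NKX2-5 (0.38 ± 0.10, 0.01562) were also called at 6 h, where the block called 3.06% of all genes.

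Among 16 measured genes of BMP, TGF-β and WNT signalling, limma without the replicate block called 0 for either comparison at any time. In each comparison 0, 2, 1 and 0 had an unadjusted p under 0.05 at 1, 2, 6 and 18 h. The shares of all genes with such a p were 2.46%, 7.64%, 5.84% and 2.05% for both drugs against GSK 256066. They were 7.07%, 8.01%, 4.79% and 4.42% for indacaterol against vehicle. The shares of all genes called without the block were 0.142%, 0.925%, 0.359% and 0% for both drugs against GSK 256066. For indacaterol against vehicle they were 0.212%, 1.20%, 0.273% and 0.00506%. BMP2, a BMP ligand, had 588.8, 74.67, 935.1 and 83.15 in replicates 1 to 4 with both drugs at 2 h, against 59.58, 9.271, 150.8 and 0.0481 with GSK 256066 alone. It was higher with both drugs in each of the 4 numbered pairs, but replicates 1 and 3 lay far above 2 and 4 in both groups, so the groups overlapped and the unblocked test gave 2.50 ± 1.14 (limma adjusted p = 0.5567). With the replicate block the same difference had an SE of 0.21 and was called (limma adjusted p = 4.639e-13), as was BMP2 at 6 h (1.18 ± 0.21, 0.0001168) and at 1 h (1.20 ± 0.21, 0.0002306), where the numbers did not meet the rule for pairing. The block called 0.480%, 3.46% and 3.06% of all genes at 1, 2 and 6 h. TCF7L2, a WNT pathway transcription factor, averaged 3369 with both drugs and 2405 with GSK 256066 at 2 h (0.49 ± 0.18, limma adjusted p = 0.3382; with the block 7.34e-05). BMP4, another BMP ligand, averaged 961.2 and 1401 at 6 h (-0.58 ± 0.24, limma adjusted p = 0.5694, or 0.002501 with the block). Between indacaterol and vehicle BMP2 differed by 1.45 at 1 h, 2.44 at 2 h and 0.90 at 6 h, each ± 0.21 (SE) with the block. TCF7L2 differed by 0.43 ± 0.09 at 2 h. In that comparison the numbers met the rule for pairing at 1 h and 6 h but not at 2 h (lowest r 0.08024). The share of all genes the block called there was not counted, so no calls with the block are given for that comparison.

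The genes whose 16 group means were most like those of TBX3, among 4973 genes with a range of at least 0.5 on the log2 scale, were JAG1, a Notch ligand (r = 0.96), LBH, a transcription cofactor (0.94), KCNK1, a potassium channel (0.94), TFAP2C, an AP-2 transcription factor (0.94), and C9orf72 (0.93). They were picked for this likeness, so their profiles are a description. JAG1 averaged 1168 with both drugs, 1152 with indacaterol, 600 with GSK 256066 and 654 with vehicle at 2 h. C9orf72 averaged 1215, 1229, 590.7 and 647.9 in these groups. In replicates 1 to 4 at 2 h JAG1 read 985.9, 628, 2356 and 701.1 with both drugs and 572.6, 261.3, 1171 and 394.7 with GSK 256066. These arrays overlapped, as did those of KCNK1 and TFAP2C, while those of LBH and C9orf72 did not. A lack of overlap in this direction was found for 2.53% of genes. Each of the 5 genes, overlapping or not, was higher with both drugs in every numbered pair of arrays. All 5 were highest at 2 h in a group with indacaterol, and their ranges over the 16 groups were 0.91 to 1.09, beside 1.68 for TBX3. TBX2 was compared with 4974 genes of at least this range, which TBX2 itself (0.29) does not reach, so flatter genes were not compared. Among those compared, the closest to TBX2 was LINC01069 (r = 0.69), which averaged 34.39. It was followed by STPG2 (0.65), PPARGC1B (0.65), CIMAP1A (0.64) and KLF1 (0.64).

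**Figure D4:**
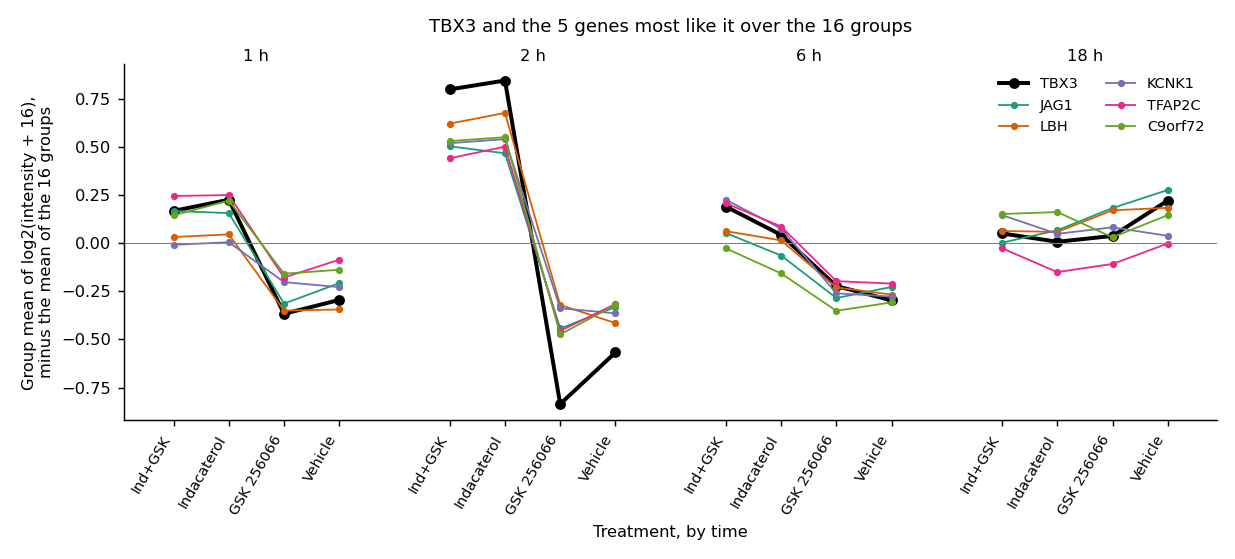
Mean log2(intensity + 16) of TBX3 and of the 5 genes most like it in each of the 16 groups, minus the gene's mean over the 16 groups, with times from left to right and Ind+GSK, indacaterol, GSK 256066 and vehicle within each time. All 6 genes stand highest in a group with indacaterol at 2 h, and TBX3 spans the widest range (1.68).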

How the data were processed

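RNA of 64 samples was hybridised to arrays as biotinylated cRNA made with a 3′ in vitro transcription kit, per the labels' protocols. The deposited values are probe-set intensities on a linear scale, made by the authors with PLIER and Transcriptome Analysis Console 4 per the submitters' processing notes, which give no order or settings here; detection calls were not used. Of 54675 probe sets 62 were controls. Values were used as log2(intensity + 16), and for each of 19775 gene symbols (platform annotation, updated through the gene ID) the probe set with the highest mean log2 value was tested; all probe sets were fitted apart. A single model with a mean per group was fitted to all arrays with limma 3.58.1 in R 4.3.3 (48 residual degrees of freedom, median prior 2.92), with Benjamini-Hochberg adjustment over all genes or all probe sets and calls at 0.05. The script was tested on simulated data.

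The members, lists and tests were chosen with earlier results of these data known. The genes named are the members, called or describing members of the 4 lists, and the 5 genes most like each member. Likeness was sought only among genes with a range of at least 0.5 on the log2 scale. Replicate numbers, whose meaning the labels do not give, were taken to pair arrays where same-numbered deviations from the group means correlated above 0.1 for all 4 numbers. This held in 15 of 20 comparisons, including both drugs against GSK 256066 at 2, 6 and 18 h but not at 1 h. In that comparison the same-numbered array correlated best for 1, 3, 2 and 4 of the 4 numbers at 1, 2, 6 and 18 h. For indacaterol against vehicle at 2 h, which did not meet the rule, it did so for all 4. The rule alone thus does not settle which arrays are paired. Fits with the replicate number as a block, without each array, without replicate 3, quantile-normalized, with a filter on dim genes, with a mean over probe sets, with another pseudocount and on the compared groups alone were alternatives. RefSeq tables supplied no TBX2 or TBX3 sequence, so none is printed.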

Additional observations from a re-analysis of the deposited data

Results flagged for a closer look

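In vehicle cells at 1 h, TBX3 at 225544_at read 236.3 in replicate 2, far from the other 3 replicates (187.3 to 192.5). In indacaterol cells at 18 h, replicate 3 read 57.58 for TBX2 at 205993_s_at, beside 115.1 to 121.6 in the others, and 188.6 for TBX2 at 40560_at, beside 233.2 to 241.8. Over the arrays of all 16 groups replicate 3 averaged lower at both of these probe sets, as given with the TBX2 values. The search for such samples covered 64 groups of 4 values, and chance alone flags about 1 group in 20. The effect of both drugs relative to GSK 256066 on TBX3 differed between the 4 times by its own test (limma F-test, adjusted p = 5.91e-06), with log2 differences of 0.53, 1.63, 0.41 and 0.01 at 1, 2, 6 and 18 h. TBX3 was chosen for its peak at 2 h of indacaterol, so this test is no independent support for that peak.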

How the results depend on the processing

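TBX3 was chosen for its peak at 2 h of indacaterol over all 16 groups, so the alternatives below are no independent support for that peak or for a rise. The rise of TBX3 with both drugs relative to GSK 256066 at 2 h was called in all 16 alternatives run (log2 0.57 to 1.74, limma adjusted p 3.072e-13 to 0.004654), and its difference between times in all 40 (highest adjusted p 0.001449). At 1 h it passed with the replicate block (0.53, adjusted p = 0.04022; 1 h did not meet the pairing rule) and after quantile normalization (0.57, 0.02246). At 18 h, where it was 0.01, it was -0.13 without all replicate 3 arrays, and ran from -0.1376 to 0.07759 when single arrays were left out. The block changed no other TBX3 gene-level call; for TBX2 it brought vehicle over time to an adjusted p of 0.04004, although vehicle at 1 and 2 h did not meet the pairing rule (lowest r 0.0912). TBX2, which was called in no comparison of 2 groups under the alternatives run, turned sign with a mean over its probe sets for indacaterol minus vehicle at 2 h (-0.02524) and 18 h (-0.03786), both drugs minus vehicle at 2 h (-0.02104) and 18 h (-0.01948) and both drugs minus GSK 256066 at 1 h (-0.02990), and after quantile normalization for GSK 256066 minus vehicle at 2 h (0.01501). Leaving out single arrays gave TBX2 ranges across 0 for both drugs minus vehicle at 2 h (-0.03322 to 0.0995) and 18 h (-0.02798 to 0.1012), indacaterol minus vehicle at 18 h (-0.0009342 to 0.12), GSK 256066 minus vehicle at 18 h (-0.11 to 0.009175) and both drugs minus GSK 256066 at 1 h (-0.04249 to 0.1214) and 6 h (-0.01501 to 0.06408). The number of genes called for both drugs minus GSK 256066 was 28, 183, 71 and 0 at 1, 2, 6 and 18 h (at 18 h limma gave 406 genes an unadjusted p under 0.05) and 15 for the difference between times. It was 95, 685, 606, 19 and 260 with the block. With only the compared groups in the fit, and so fewer arrays to estimate the spread, it was 5, 25 and 4 at 1, 2 and 6 h and 8 between times. It was 157 at 6 h and 36 between times after quantile normalization, and between times 61 without replicate 3 and 24 with the filter on dim genes. Without single arrays the counts were 6 to 24, 110 to 213 and 37 to 78 at 1, 2 and 6 h and 10 to 34 between times; the fewest followed from leaving out both drugs replicate 3 at 1 h, GSK 256066 replicate 2 at 2 h and GSK 256066 replicate 4 at 6 h, and the most between times from leaving out GSK 256066 replicate 3 at 18 h. The cause of these changes was not tested.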
